A study of Mus musculus with 60 samples.

Results

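The genes described here are 10 enzymes that oxidise or reduce alcohols and aldehydes: the alcohol dehydrogenases Adh1 and Adh7, the aldehyde dehydrogenases Aldh1a1, Aldh1a7, Aldh3a1 and Aldh3a2, and the aldo-keto reductases Akr1b7, Akr1b8, Akr1c13 and Akr1c14. They were chosen by name, with earlier results of these data known. They are the rows of 3 deposited count tables whose Ensembl identifier belongs to these symbols. These are 10 of 31354 distinct genes listed in the tables. All 10 had a row in the table of dome and suspension cultures and in the table of bulk passages, and 9 had a row in the table of single organoids, where Adh1 has no row.

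The samples were liver organoids, hollow epithelial spheres grown from bile duct cells (cholangiocytes) of C57BL/6N mice that the labels give as 3-4 months old. The labels list no transgene and no treatment for these mice. In the culture comparison, 3 pools of digested liver (from 2, 4 and 3 mice) were each grown in drops of Matrigel, a basement membrane gel (dome, n = 3), or on a shaker in 10% Matrigel (suspension, n = 3). In the passage comparison, bulk cultures of Sets 1, 3 and 4, each from the liver of 1 mouse, were labelled passage 4 (n = 3) or passage 11 (n = 3), with 2 technical replicates each that were summed. Single organoids were picked from suspension cultures of 4 sets, again 1 mouse a set, and 35 of 42 were kept by the study. Set 1 (passage 11) gave 8 of them, Set 2 (passage 3) gave 10, Set 3 (passage 3) gave 5 and Set 4 (passage 4) gave 12. The passage numbers of the single organoids come from the methods of the study.

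Alcohol dehydrogenases turn alcohols such as ethanol and retinol into aldehydes, and aldehyde dehydrogenases turn aldehydes into acids. Aldo-keto reductases work the other way for many of the same substrates and use NADPH to reduce reactive aldehydes, sugars and steroids. In liver these enzymes clear ethanol, products of lipid peroxidation and bile acid or steroid intermediates, and the same families make retinoic acid from vitamin A. Adh1 and Aldh1a1 are abundant in hepatocytes, while Adh7, Aldh3a1 and Akr1b8 are known mostly from the epithelia of stomach, cornea and intestine.

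Read counts were placed on the 3′ end of transcripts and collapsed by molecular identifier, and are given as CPM, counts scaled to libraries of equal size. Library totals ranged from 1776490 to 14761853 counts in the culture comparison, from 1486347 to 5532630 in the bulk passages and from 1059002 to 11175868 in the single organoids. A single count was therefore worth up to 0.733, 0.636 and 0.920 CPM, and levels near these values rest on very few molecules. The labelled cell type was checked by its markers. All 18 cholangiocyte genes of a fixed list were in each table, and their summed level was between 6592 and 33847 CPM in every library. Of 10 endothelial genes, 4 to 7 had a row, and these summed to at most 3.83 CPM. Of 13 mesenchymal genes, 5 to 7 had a row, and these summed to at most 6.05 CPM. Of 12 macrophage genes, 4 or 5 had a row. They summed to at most 93.1 CPM in domes, 9.46 CPM in suspensions, 18.4 CPM in the bulk passages and 7.27 CPM in single organoids. The hepatocyte list summed to between 412 and 3344 CPM.

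The members sit as nearby pairs in the mouse genome (GRCm38). Adh1 (chr3:138260991-138290698, plus strand) lies 27.6 kb from Adh7 (chr3:138217760-138233382, plus), and Aldh1a1 (chr19:20492715-20643465, plus) lies 49.5 kb from Aldh1a7 (chr19:20692953-20727562, minus). Aldh3a1 (chr11:61207537-61218421, plus) and Aldh3a2 (chr11:61223417-61267464, minus) are 5.00 kb apart, with their ends towards each other. Akr1b8 (chr6:34354119-34368463, plus) and Akr1b7 (chr6:34412334-34423142, plus) lie 43.9 kb apart, and Akr1c14 (chr13:4049011-4090688, plus) and Akr1c13 (chr13:4191150-4205596, plus) 100.5 kb apart. In each of these Akr pairs, 1 protein-coding gene lies between. The coding sequences were 91.8% identical between Aldh1a1 and Aldh1a7 and 85.0% identical between Akr1b7 and Akr1b8. They were 74.0% identical between Akr1c13 and Akr1c14, 70.5% between Adh1 and Adh7 and 60.0% between Aldh3a1 and Aldh3a2.

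Because counting used the 3′ end, what separates these pairs is the last part of the transcript. Over the last 500 transcript bases the identity was 77.8% for Aldh1a1 and Aldh1a7 and 60.8% for Akr1b7 and Akr1b8. None of the 50-base windows in that stretch was shared with another annotated transcript for 8 of the members. The exceptions were Akr1c13, with 12.0% of its windows shared with Akr1c12, and Akr1b8, with 2.44% shared with Gm5649, so reads of Akr1c13 and Akr1c12 could be exchanged in part. Adh1, Adh7, Aldh1a1 and Akr1b7 each overlap an annotated gene on the opposite strand, Akr1c14 overlaps Gm18857 on the same strand, and the sources at hand do not say whether counting used strand.

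Promoter windows (250 bases before to 50 after a start, RefSeq, build GRCm38.p6) were found for 9 of the 10 members and not for Aldh3a1. A window at a downstream start of Aldh1a1 (chr19:20601718-20602017, plus strand) and the window of Aldh1a7 (chr19:20727507-20727806, minus strand) are shown because their last 150 bases were 95.4% identical. The capitals mark the longest run that both share, 65 bases that begin 94 bases before each start.
Aldh1a1: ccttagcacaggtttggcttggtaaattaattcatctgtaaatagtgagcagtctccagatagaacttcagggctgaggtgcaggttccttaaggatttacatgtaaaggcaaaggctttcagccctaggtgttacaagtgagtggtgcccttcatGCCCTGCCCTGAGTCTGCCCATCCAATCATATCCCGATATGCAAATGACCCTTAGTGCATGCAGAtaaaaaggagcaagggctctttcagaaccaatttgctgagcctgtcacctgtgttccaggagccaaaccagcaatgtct
Aldh1a7: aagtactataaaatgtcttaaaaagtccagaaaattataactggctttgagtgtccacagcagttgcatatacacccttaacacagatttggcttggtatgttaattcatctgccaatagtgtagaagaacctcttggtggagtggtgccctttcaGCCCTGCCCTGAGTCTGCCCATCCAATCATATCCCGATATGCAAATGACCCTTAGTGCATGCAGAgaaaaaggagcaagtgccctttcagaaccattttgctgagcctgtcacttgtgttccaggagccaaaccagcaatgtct
The window at the upstream start of Aldh1a1 had 52.0% identity with Aldh1a7 over the same last 150 bases, and the longest run it shared was 8 bases. Among the other pairs with both windows at hand, none shared a run over 9 bases.

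The windows of Akr1b7 (chr6:34412112-34412411, plus strand) and Akr1b8 (chr6:34353896-34354195, plus strand) are also shown. These paralogs, so alike in their coding sequence, had log2 fold-changes between dome and suspension of 3.89 and 0.73. Those values lay farthest apart among the 4 pairs tested. The last 150 bases of these windows were 48.0% identical. Capitals mark matches to GCGTG, the core of the response element of the aryl hydrocarbon receptor (AhR), and to TATAAA, on either strand. Neither motif overlaps the other in these windows.
Akr1b7: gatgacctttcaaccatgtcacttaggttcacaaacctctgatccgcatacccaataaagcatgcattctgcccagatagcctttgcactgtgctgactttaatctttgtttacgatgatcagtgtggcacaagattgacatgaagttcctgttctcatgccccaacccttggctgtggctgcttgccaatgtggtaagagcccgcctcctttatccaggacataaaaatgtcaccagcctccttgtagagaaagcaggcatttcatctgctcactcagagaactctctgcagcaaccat
Akr1b8: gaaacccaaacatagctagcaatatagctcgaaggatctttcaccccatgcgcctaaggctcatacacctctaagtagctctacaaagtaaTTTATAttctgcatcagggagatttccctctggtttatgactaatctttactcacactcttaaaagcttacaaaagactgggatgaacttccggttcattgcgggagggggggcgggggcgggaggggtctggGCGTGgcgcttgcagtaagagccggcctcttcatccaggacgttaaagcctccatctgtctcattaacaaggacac
The capitals stand in Akr1b8 only. Over all members with a window, GCGTG was found in Adh7, Aldh3a2, Akr1b8 and Akr1c14, against 32.4% of all 32851 promoter windows. TATAAA was found in Adh7, Aldh1a7 and Akr1b8, against 13.6% of all windows. The antioxidant response element, to which Nrf2 binds, was found in 0 of the members' windows and in 3.04% of all windows, which says only that these letters are not within this stretch.

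To ask how the culture method bears on these enzymes, dome and suspension cultures were compared. Of the 9 members that passed the filter on low counts, 7 were higher in domes and none was lower (edgeR quasi-likelihood test, Benjamini-Hochberg adjusted p below 0.05), where 29.8% of all 12699 genes tested were called in either direction, 1907 of them higher in domes. The 7 were Akr1b7, Akr1c13, Adh7, Akr1c14, Aldh1a7, Aldh1a1 and Aldh3a2. The median log2 fold-change of the 9 members was 1.72, beside -0.04 over all genes. Because the members were chosen with earlier results of these data known, their excess over all genes is only a description. Adh1 was below the filter. All adjusted p-values given for single genes come from this test, which did not pair samples unless a block is named.

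The aldo-keto reductase Akr1b7, which reduces lipid-derived aldehydes, had the steepest difference. Its level was 50.9, 82.1 and 83.0 CPM in domes 1 to 3 and 4.00, 6.15 and 4.41 CPM in suspensions 1 to 3. Every dome was above every suspension, by 12.7, 13.4 and 18.8 times within the same number. The mean was 72.0 ± 18.3 CPM (SD, n = 3) against 4.85 ± 1.14 CPM, a log2 fold-change of 3.89 (SE 0.28, adjusted p = 0.000249).

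Its paralog Akr1b8, which reduces retinal and other aldehydes, had 185.6, 354 and 285 CPM in domes and 159.5, 189.6 and 146.8 CPM in suspensions. Dome 1 was below suspension 2, so the groups overlapped. The log2 fold-change was 0.73 (SE 0.25) and did not pass the threshold (adjusted p = 0.0516). It passed with the replicate number as a block (adjusted p = 0.0283) and without dome 1 (adjusted p = 0.00962).

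Akr1c13, a hydroxysteroid dehydrogenase of the aldo-keto reductase family, had 206, 103 and 47.3 CPM in domes and 20.6, 28.6 and 17.9 CPM in suspensions. The domes were all higher but spread over 4.36 times among themselves, and dome 1 was the highest. The log2 fold-change was 2.45 (SE 0.45, adjusted p = 0.00468), and 1.75 without dome 1 (adjusted p = 0.00531). Akr1c12, which shares part of its 3′ end, moved the same way, from 8.87 CPM in suspension to 54.6 CPM in domes (log2 fold-change 2.69, SE 0.49, adjusted p = 0.00439).

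Akr1c14, a 3-alpha-hydroxysteroid dehydrogenase, was near the limit of detection. It was found at 3.12, 2.20 and 1.65 CPM in domes (47 counts in all) and at 0.631, 0.709 and 0.758 CPM in suspensions (17 counts). The groups did not overlap and the log2 fold-change was 1.85 (SE 0.45, adjusted p = 0.0132). In domes 2 and 3 the level came from 3 counts each, and the call was lost with the replicate block (adjusted p = 0.0534) and without dome 1 (adjusted p = 0.163) or any 1 of the suspensions (0.0518 to 0.0694).

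The retinaldehyde dehydrogenase Aldh1a1, which makes retinoic acid, had 62.9, 27.9 and 24.7 CPM in domes and 21.0, 14.2 and 14.7 CPM in suspensions. Dome 1 held the high value, and without it the log2 fold-change fell from 1.28 (SE 0.35, adjusted p = 0.0217) to 0.66 (adjusted p = 0.0855). The call was also lost without suspension 2 (adjusted p = 0.0837) or suspension 3 (0.0968). Aldh1a7, its rodent paralog, had 9.21, 2.20 and 7.15 CPM in domes and 1.89, 3.07 and 1.72 CPM in suspensions. Dome 2, with 3 counts, was below suspension 2. Its log2 fold-change was 1.72 (SE 0.44, adjusted p = 0.0173), and the call was lost without dome 1 (adjusted p = 0.142), without suspension 1 (0.0645) and without suspension 3 (0.0968).

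Aldh3a2, the fatty aldehyde dehydrogenase of the endoplasmic reticulum, had 46.4, 29.3 and 44.0 CPM in domes and 16.6, 16.6 and 24.0 CPM in suspensions. All domes were above all suspensions, with a log2 fold-change of 1.07 (SE 0.25, adjusted p = 0.011), lost without suspension 1 (adjusted p = 0.0539) or suspension 2 (0.0561). Aldh3a1, which oxidises aromatic and medium-chain aldehydes, had 9.82, 2.20 and 5.50 CPM in domes against 0.631, 1.18 and 3.58 CPM in suspensions. Dome 2 was below suspension 3. The log2 fold-change of 1.69 (SE 0.58) did not pass the threshold (adjusted p = 0.0503), but did so with the replicate block (adjusted p = 0.031), without dome 2 (0.0284) and without suspension 3 (log2 fold-change 2.87, adjusted p = 0.0264). Without dome 1 the log2 fold-change fell to 0.88 (adjusted p = 0.426), and without suspension 1 or 2 the adjusted p was 0.130 and 0.138.

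The alcohol dehydrogenases were the scarcest members. Adh7, which oxidises retinol and ethanol in epithelia, had 2.13, 1.47 and 2.75 CPM in domes from 28, 2 and 5 counts and 0, 0.236 and 0.62 CPM in suspensions from 0, 1 and 9 counts. The groups did not overlap and the log2 fold-change was 2.40 (SE 0.65, adjusted p = 0.0208), a call lost without dome 1 (adjusted p = 0.0897), suspension 1 (0.0537) or suspension 2 (0.067). Without suspension 3, which held 9 of the 10 counts in suspensions, it was 3.98 (adjusted p = 0.0298). Adh1, the classical liver alcohol dehydrogenase, had 32, 0 and 2 counts in domes and 0 in each suspension. It was not tested in the main fit, and in dome 2 a count of 0 allowed up to 2.20 CPM. With no filter on low counts it was called higher in domes, as all 10 members were. That fit gave far smaller adjusted p-values at nearly the same SE. For Akr1b7 the edgeR adjusted p was 1.24e-38 (SE 0.285) in place of 0.000249 (SE 0.285). Its calls are therefore not on the footing of the main fit.

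**Figure D1:**
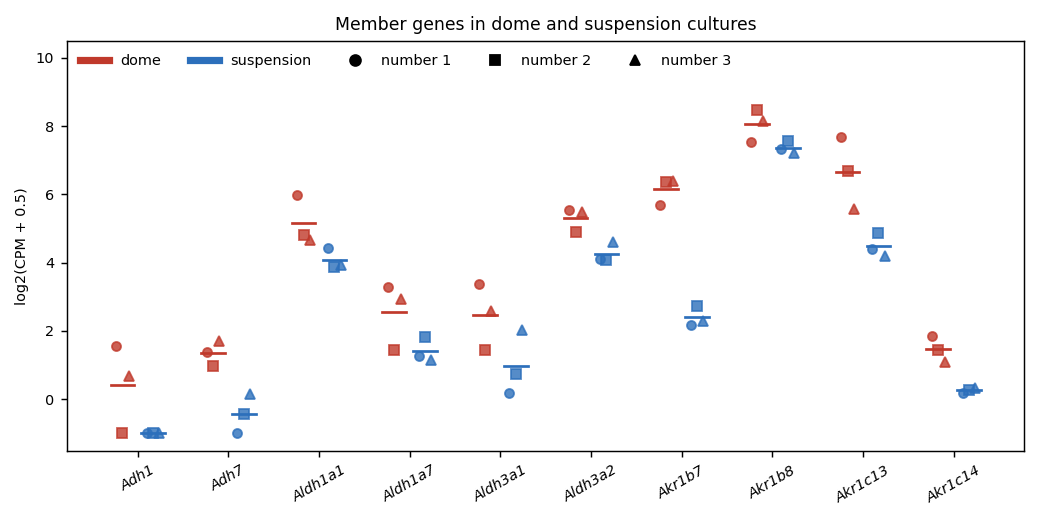
Level of each member in every dome (red) and suspension (blue) library as log2(CPM + 0.5), with the marker shape for the replicate number and a bar at the mean of the 3 libraries. Akr1b7 shows the widest gap, with 50.9 to 83.0 CPM in domes and 4.00 to 6.15 CPM in suspensions, and Akr1b8 overlaps.

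Between domes and suspensions 6 of the 9 tested members did not overlap, all higher in domes, against 21.6% of all genes with no overlap in that direction. Leaving out any library kept the calls of Akr1b7 and Akr1c13. With each library reduced at random to the depth of the shallowest, 3 of the 7 calls were kept, those of Akr1b7, Akr1c13 and Aldh3a2. The calls of Aldh1a1 (adjusted p = 0.0715) and Aldh1a7 (0.0517) were lost, Adh7 and Akr1c14 no longer passed the filter, and Aldh3a1 was newly called (adjusted p = 0.0493). With the replicate number as a block 8 members were called, 6 of the 7 and in addition Aldh3a1 and Akr1b8. In each of these bulk libraries, fewer cells of a type and less RNA per cell cannot be told apart. Other markers differed between the same groups. The 18 cholangiocyte genes summed to between 16931 and 33847 CPM in domes and between 11397 and 12629 CPM in suspensions, and 10 of them were called higher in domes and 2 lower. The 20 hepatocyte genes in the table, of 28 on the list, summed to between 1012 and 1564 CPM in domes and between 412 and 759 CPM in suspensions, with Asgr1 at 0 in domes and Apoh, Fgg and G6pc at 0 in suspensions. The 16 proliferation genes summed to between 306 and 692 CPM in domes and between 1115 and 1251 CPM in suspensions. The 5 macrophage genes in the table, of 12, summed to between 6.93 and 93.1 CPM in domes and between 3.37 and 9.46 CPM in suspensions, with C1qa at 0 in domes and Adgre1 at 0 in suspensions. The part of these differences in the members' values was not tested.

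Relatives of the members were mixed. Over all 12699 genes tested, 1907 were called higher in domes and 1872 lower. Of 12 other aldehyde dehydrogenases tested, 5 were higher in domes and 1 was lower (median log2 fold-change 0.84). Aldh1l1, which oxidises formyl-tetrahydrofolate, had 8.69 CPM in domes and 1.39 CPM in suspensions (adjusted p = 0.00419), and Aldh3b1 was higher by 2.06 on the log2 scale (SE 0.29, adjusted p = 0.00162). Aldh3b2 was called higher with only 2 counts in suspension (31 in domes). Aldh1a3, another maker of retinoic acid, fell by 2.62 in domes (SE 0.66, adjusted p = 0.0159).

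Of 7 other aldo-keto reductases tested, 4 were higher in domes and 1 was lower (median 0.59). Akr1c19 was higher by 1.84 on the log2 scale (SE 0.26, adjusted p = 0.0018), from 48.6 CPM in suspension to 173.6 CPM in domes, and Akr7a5 by 0.83 (SE 0.20, adjusted p = 0.012). Akr1b3, aldose reductase, went the opposite way to Akr1b7, with 30.3 CPM in domes and 92.5 CPM in suspension (log2 fold-change -1.56, SE 0.25, adjusted p = 0.00295). Adh5, the only other alcohol dehydrogenase tested, had 101.8 and 96.1 CPM and a log2 fold-change of 0.10 (SE 0.21, adjusted p = 0.762).

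Of 17 genes of retinoid handling tested, 5 were higher in domes and none lower (median 0.68). Rbp2, a cellular retinol-binding protein, had 265 ± 82 CPM in domes and 9.20 ± 2.45 CPM in suspensions (log2 fold-change 4.88, SE 0.33, adjusted p = 0.000218). Rdh7, a retinol dehydrogenase, was higher by 4.32 (SE 0.69, adjusted p = 0.00284) and Dhrs7 by 1.82. Of 28 genes known as targets of Nrf2, the regulator of the response to oxidants, 16 were higher and 1 lower (median 0.75). The steepest were Gsta1 at 3.66, Hmox1 at 3.58, Gsta2 at 2.88 and Cbr3 at 2.51, all called. None of 5 genes on a list of AhR targets, Aldh3a1 among them, was called.

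The passage comparison asks whether prolonged culture bears on the same enzymes. Of 6 members tested, only Akr1b8 was called, and it was lower at passage 11 as labelled, where 10.1% of all 13738 genes tested were called lower. Its direction rests on those labels. Akr1b8 had 304, 254 and 233 CPM at passage 4 in Sets 1, 3 and 4, and 132.4, 94.8 and 126.6 CPM at passage 11. Each set was lower at passage 11, with 0.435, 0.373 and 0.542 of its level at passage 4, and the groups did not overlap (20.3% of all genes did not overlap in that direction). The mean was 118 ± 20 CPM against 264 ± 36 CPM, a log2 fold-change of -1.16 (SE 0.17, adjusted p = 0.00199). The call held without each set in turn, with adjusted p from 0.00208 to 0.039. The technical replicates lay close together for this gene, for example 133.7 and 130.7 CPM for Set 1 at the later passage.

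**Figure D2:**
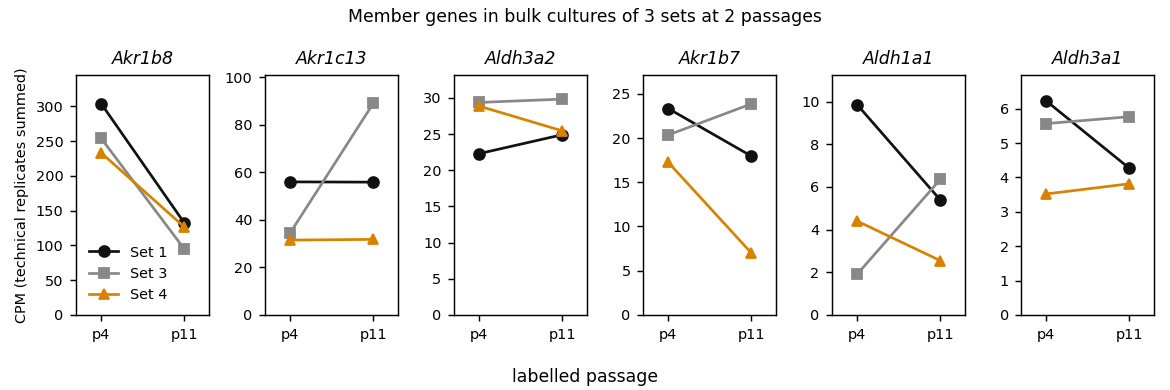
Level in CPM of the 6 tested members in bulk cultures of Sets 1, 3 and 4 at labelled passages 4 and 11, with lines joining the same set and the technical replicates summed. Akr1b8 fell in each set, from 233 to 304 CPM down to 94.8 to 132.4 CPM, while the other genes show no single direction over the 3 sets.

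The other 5 tested members did not pass the threshold, and their sets moved in different ways. Akr1c13 had 56.0, 34.5 and 31.5 CPM at passage 4 and 55.9, 89.1 and 31.8 CPM at passage 11, so that Set 3 alone was far apart (log2 fold-change 0.59, SE 0.32, adjusted p = 0.224). Akr1b7 had 23.3, 20.3 and 17.2 CPM at passage 4 and 18.0, 23.9 and 7.00 CPM at passage 11 (log2 fold-change -0.21, SE 0.31, adjusted p = 0.677). Aldh1a1 had 9.85, 1.92 and 4.40 CPM at passage 4 and 5.39, 6.36 and 2.54 CPM at passage 11. Set 3 was lowest of the 3 at passage 4 and highest at passage 11.

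The paired aldehyde dehydrogenases were closer to level. Aldh3a2 had 22.3, 29.4 and 28.9 CPM at passage 4 and 24.9, 29.8 and 25.4 CPM at passage 11, with a log2 fold-change of -0.00 (SE 0.17, adjusted p = 0.994). Aldh3a1 had 6.22, 5.57 and 3.52 CPM and then 4.26, 5.77 and 3.82 CPM (log2 fold-change -0.07, adjusted p = 0.902). Adh1, Adh7, Aldh1a7 and Akr1c14 stayed below the filter. Akr1c14 was at 2.39 CPM, from 12 counts, in Set 3 at passage 11 and at most at 0.449 CPM in the other libraries.

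Over all 13738 genes tested, 1392 were called higher at passage 11 and 1392 lower. Among relatives, 2 of 13 other aldehyde dehydrogenases were higher at passage 11 and 2 lower (median -0.03). Aldh1l2 fell by 3.08 on the log2 scale (SE 0.49, adjusted p = 0.00337) and Aldh3b1 fell by 1.02 (SE 0.21, adjusted p = 0.0094), while Aldh9a1 was higher by 0.67 and Aldh7a1 by 0.44. None of 7 other aldo-keto reductases was called. Of 28 Nrf2 targets 1 was higher and 9 were lower (median -0.57, beside -0.05 over all genes). Slc7a11 fell by 3.02, Gclc by 1.86, Abcc4 by 1.72 and Cbr3 by 1.47, all called. Of 15 retinoid genes 4 were higher and none lower, with Rbp2 higher by 3.08 (SE 0.72, adjusted p = 0.0156). The proliferation genes summed to between 446 and 510 CPM at passage 4 and between 1167 and 1662 CPM at passage 11. In the single organoids the median sum went the other way, with 1103 CPM in Set 1 (passage 11) and 1413 to 1561 CPM in the sets of early passage. For the bulk comparison, the study's text ties proliferation terms to genes lower at passage 11, opposite to the sums given here. Its figure legend describes the same panel as terms higher at passage 11. Other genes had the same direction in both. Rbp2 had a higher and Aldh1l2 a lower level in Set 1 organoids than in the other sets, as at bulk passage 11. No gene in these data checks the passage label itself. If the labels of the bulk samples were exchanged, the direction of every bulk passage difference given here, that of Akr1b8 included, would turn.

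In the single organoids, each set is 1 mouse, so set, mouse and passage cannot be told apart, and p-values measure the spread between organoids of a culture. The 3 comparisons below share the Set 1 organoids. Of 7 members tested, 4 were higher in Set 1 (passage 11) than in Set 2, against 7.08% of all 13927 genes. In the comparison with Set 3 there were 2, against 4.30% of all genes, and in that with Set 4 there were 5, against 12.4%. No member was called lower in Set 1. In every such comparison the ranges of the organoids overlapped.

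Akr1b7 had the steepest difference here too. In Set 1 it ranged from 3.01 to 50.1 CPM with a median of 16.0 CPM. The ranges were 2.14 to 8.28 CPM (median 4.95) in Set 2, 2.89 to 7.90 CPM (median 5.35) in Set 3 and 1.86 to 10.2 CPM (median 4.29) in Set 4. In Set 1, 4 of 8 organoids were above all 27 organoids of the other sets, and 1, organoid 8, was at 3.01 CPM. Organoids 1, 6 and 3, at 50.1, 38.3 and 29.3 CPM, were also the deepest libraries of Set 1 (11175868, 5595426 and 4638927 counts). Organoid 5, at 22.6 CPM, had 2244106 counts, and organoid 8 had 1267964, of which 4 were Akr1b7. Whether depth bears on the levels of these organoids, or on the spread and likeness given below for Set 1, was not tested. The log2 fold-change was 2.22 (SE 0.34, adjusted p = 1.42e-05) against Set 2, 2.07 (SE 0.43, adjusted p = 0.00093) against Set 3 and 2.32 (SE 0.32, adjusted p = 1.78e-06) against Set 4. With each organoid reduced at random to the lowest depth, Akr1b7 was still called higher in Set 1 than in Sets 2, 3 and 4.

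Akr1c13 ranged from 8.23 to 25.1 CPM (median 15.3) in Set 1. It ranged from 4.37 to 12.1 CPM (median 7.32) in Set 2, from 7.94 to 9.19 CPM (median 8.33) in Set 3 and from 3.22 to 11.6 CPM (median 7.65) in Set 4. All 8 organoids of Set 1 were above the median of the others, 7.94 CPM. The log2 fold-changes were 1.18 (SE 0.22, adjusted p = 0.000257), 0.93 (SE 0.27, adjusted p = 0.0176) and 1.12 (SE 0.21, adjusted p = 0.000224). The call against Set 3 was lost with thinning, that is with each organoid reduced to the lowest depth (adjusted p = 0.0878).

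Aldh1a1 ranged from 3.11 to 19.6 CPM (median 6.32) in Set 1, from 2.35 to 6.06 CPM (median 3.33) in Set 2, from 2.68 to 12.4 CPM (median 3.80) in Set 3 and from 0.556 to 8.76 CPM (median 2.96) in Set 4. Set 1 was higher than Set 2 (log2 fold-change 1.15, SE 0.33, adjusted p = 0.0154) and Set 4 (1.21, SE 0.31, adjusted p = 0.00672), and its difference from Set 3 did not pass (0.54, SE 0.38, adjusted p = 0.375). Without Set 3 organoid 5 that difference was 1.16 (adjusted p = 0.0564). The call against Set 2 was lost without Set 1 organoid 5 (log2 fold-change 0.84, adjusted p = 0.0707), and after thinning the calls against Set 2 (adjusted p = 0.228) and Set 4 (0.208) were both lost. Aldh1a7 was highest in that same organoid, at 7.24 CPM from 17 counts, beside 0.252 to 1.08 CPM in the other organoids of Set 1, and was not called in any comparison of sets.

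Aldh3a2 ranged from 6.99 to 25.3 CPM (median 14.3) in Set 1 and from 6.61 to 12.0 CPM (median 8.98) in Set 2, a log2 fold-change of 0.82 (SE 0.20, adjusted p = 0.00473) that did not pass after thinning (adjusted p = 0.0588). Against Set 3 it was 0.60 (adjusted p = 0.0958) and against Set 4 0.53 (adjusted p = 0.0562), so neither passed. Akr1b8 ranged from 71.4 to 167 CPM (median 89.0) in Set 1 and from 45.5 to 99.7 CPM (median 69.2) in Set 4, with a log2 fold-change of 0.63 (SE 0.18, adjusted p = 0.0168). Its differences from Set 2 (0.39, adjusted p = 0.171) and Set 3 (0.44, adjusted p = 0.218) did not pass. Adh7 had at most 2 counts in any organoid, and Akr1c14 at most 9.

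**Figure D3:**
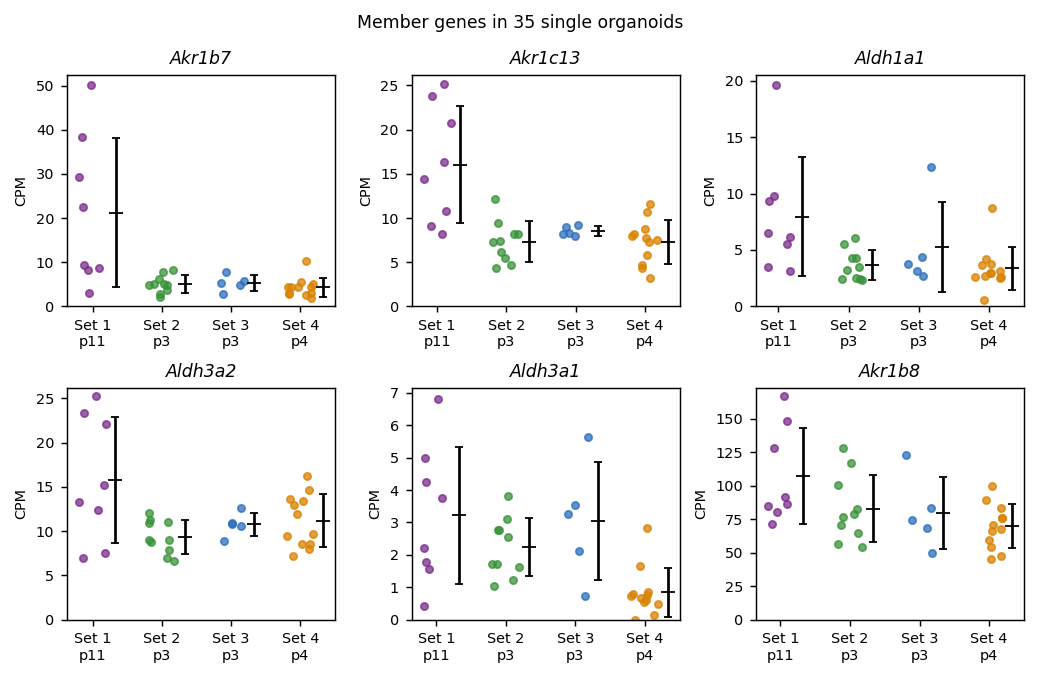
Level in CPM of 6 members in each of the 35 kept single organoids by set, with the mean and SD of each set in black. Set 1 (passage 11) spreads from 3.01 to 50.1 CPM for Akr1b7, and Aldh3a1 is lowest in Set 4, with a median of 0.713 CPM.

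Aldh3a1 was the only member called among the sets of early passage. It ranged from 0 to 2.83 CPM (median 0.713) in Set 4, against 1.04 to 3.81 CPM (median 2.14) in Set 2, 0.722 to 5.65 CPM (median 3.25) in Set 3 and 0.426 to 6.81 CPM (median 2.98) in Set 1. Set 4 was lower than Set 1 (log2 fold-change of Set 1 over Set 4 1.88, SE 0.41, adjusted p = 0.00143), Set 2 (1.25, SE 0.43, adjusted p = 0.0477) and Set 3 (1.73, SE 0.48, adjusted p = 0.0144). The call against Set 3 was lost without Set 3 organoid 1 (adjusted p = 0.106). The call against Set 2 was lost in fits without Set 3 organoid 4, 5 or 6, which share the estimate of spread (adjusted p from 0.0542 to 0.0562). It was the only member called between Sets 2 and 4 (12.4% of all genes were called in either direction) and between Sets 3 and 4 (11.6%), and no member was called between Sets 2 and 3 (3.93%). These levels rest on few molecules, 35 counts over the 12 organoids of Set 4, of which 18 came from organoid 13 and at most 3 from each of the other 11.

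The bulk cultures give the same genes in 3 of these sets from another table, scaled on its own. In bulk, the Akr1b7 level of Set 1 was 18.0 CPM at passage 11, and Sets 3 and 4 had 20.3 and 17.2 CPM at passage 4. In single organoids its median was 16.0 CPM for Set 1 (passage 11), 5.35 CPM for Set 3 (passage 3) and 4.29 CPM for Set 4 (passage 4). These 3 bulk values thus lay within 17.2 to 20.3 CPM, while the medians of the single organoids were spread from 4.29 to 16.0 CPM. The other 3 bulk values were 23.3 CPM (Set 1, passage 4), 23.9 CPM (Set 3, passage 11) and 7.00 CPM (Set 4, passage 11). The contrast depends on the bulk labels and was not tested. According to the study's methods, single organoids came from suspension and gave mRNA, while bulk cultures gave total RNA. The study's text does not state whether the bulk passages were grown in domes or in suspension. Akr1b7 itself had a mean of 72.0 CPM in domes and 4.85 CPM in suspensions. The part of these differences in the contrast was not tested. Akr1b8, lower in bulk at passage 11 as labelled, had its highest median of the 4 sets in Set 1 organoids (passage 11). That contrast rests on the bulk labels too and has the same limits.

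**Figure D4:**
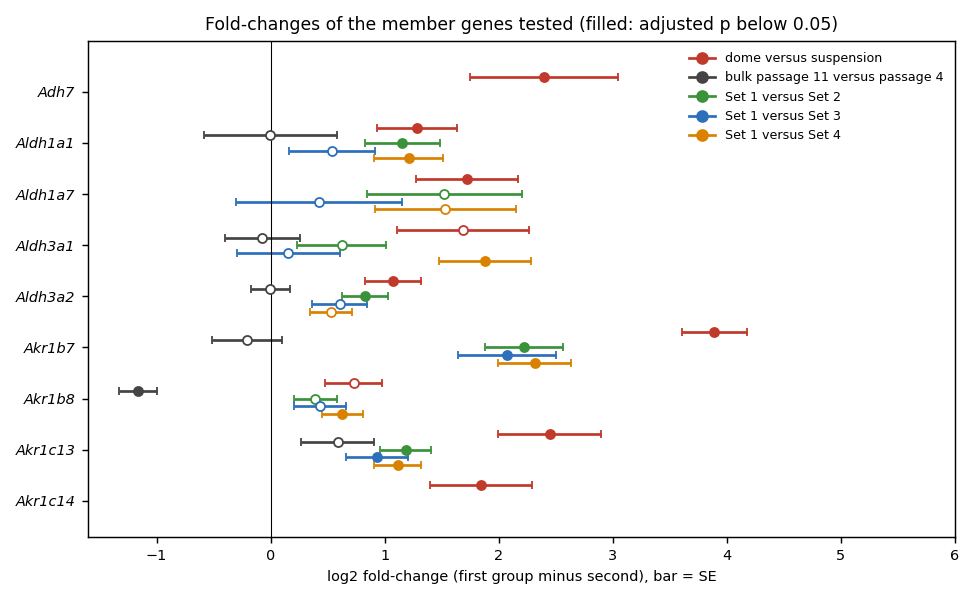
Log2 fold-change with its SE of each tested member in 5 comparisons, filled where the adjusted p is below 0.05. Akr1b7 and Akr1c13 are filled in the culture comparison and in the 3 comparisons of Set 1, and Akr1b8 is the only one filled for bulk passage, at -1.16.

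Relatives were also compared between Set 1 and the other sets. Over all 13927 genes tested, 986 were higher in Set 1 and 1002 lower against Set 2. The counts were 599 and 715 against Set 3, and 1721 and 1059 against Set 4. Of 7 other aldo-keto reductases tested, 3 were higher and 1 lower against Set 2, 3 and 1 against Set 3, and 4 and 1 against Set 4. Akr1c12, beside Akr1c13, was higher by 1.35 (adjusted p = 0.00592), 1.24 (0.0438) and 1.56 (0.000774) on the log2 scale, and Akr1e1 by 0.62 (0.0126), 0.94 (0.00236) and 1.17 (2.54e-06). Akr1b3 was lower in Set 1, with 15.6 CPM against 32.4, 27.0 and 24.8 CPM. Of 28 Nrf2 targets 9 were higher and 1 lower against Set 2, 6 and 4 against Set 3, and 10 and 2 against Set 4, with medians of 0.02, 0.10 and 0.12. Of 15 retinoid genes 2 and 0, 1 and 1, and 2 and 0 were called in the same order. The hepatocyte genes summed to a median of 1359 CPM in Set 1 organoids (644 to 3344), 927 CPM in Set 2 (618 to 1656), 594 CPM in Set 3 (536 to 779) and 1522 CPM in Set 4 (583 to 2698). Proliferation genes had a median sum of 1103 CPM in Set 1 and of 1508, 1413 and 1561 CPM in the others. Their part in the members' values was not tested.

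How much single organoids of a culture differ can be read from the SD of log2 CPM within sets. Over 7816 genes with a mean of at least 10 CPM its median was 0.40. Akr1b8 had an SD of 0.41, larger than that of 52.4% of these genes, where counting error alone would give 0.10. Aldh3a2 had 0.44, larger than 61.3%, with 0.28 from counting. Akr1b7 (mean 8.53 CPM) had 0.83, with 0.33 from counting, and its SD was 1.36 in Set 1 and between 0.51 and 0.61 in the other sets. The counting values use the mean over all 35 organoids. For Akr1b7 that mean lies above those of Sets 2, 3 and 4 (5.06, 5.34 and 4.29 CPM). The value of 0.33 therefore understates counting error in these sets. Akr1c13 had 0.50 with 0.31 from counting, and Aldh1a1 0.74 with 0.44. Aldh1a7 had 1.27 with 1.07 from counting, and Aldh3a1 had 0.96 with 0.66. Aldh3a1 had a mean of 2.10 CPM over all organoids but 0.842 CPM in Set 4, so 0.66 understates counting error in that set.

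Members were then compared across the 35 organoids after removing set means, as a description, since all values share the same libraries and depths. The highest Pearson correlation among members was between Aldh3a2 and Akr1b7 (r = 0.58, Spearman rho = 0.46, a rho that other pairs also reached), but r was 0.87 within Set 1, 0.13 in Set 2, -0.60 in Set 3 and 0.28 in Set 4. Akr1b8 and Akr1c13 had r = 0.51, with 0.28, 0.82, 0.62 and 0.58 within the sets, and Akr1b7 and Akr1b8 had r = 0.47, with 0.75, 0.82, 0.01 and -0.05. The paralogs Aldh1a1 and Aldh1a7, so alike in sequence, had r = 0.09 (rho 0.01). Within Set 1 their r was 0.77, where organoid 5 held the highest value of both.

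Of 7810 genes searched, those most like Akr1b8 across organoids were Cbr1, a carbonyl reductase (r = 0.80, rho = 0.77), Gstp1 (r = 0.79) and Gsta3 (r = 0.78), both glutathione transferases. Without Set 1 organoid 6, the farthest from its set mean in Akr1b8, these were 0.78, 0.76 and 0.77. Those most like Aldh3a2 were Cd164 (r = 0.80), Tmprss2 (r = 0.75) and Dcaf11 (r = 0.72), and without Set 1 organoid 7 they were 0.80, 0.75 and 0.65. Akr1b8 and Aldh3a2 were the only members with a mean of at least 10 CPM in the 35 organoids.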

How the data were processed

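Count tables of 3 experiments were used, with 60 samples in all, each assigned by its title. The values are whole-number counts per gene deposited by the authors. According to the study's methods, 3′-end libraries with molecular identifiers were processed with zUMIs, STAR, SAMtools and featureCounts on mm10 (GRCm38), and libraries were down-sampled depending on how their sizes varied, so depth differences may be smaller than those of the raw reads. The submitters' processing notes name SAMtools 1.9, R 3.6.3, edgeR 3.28.1 and limma 3.42.2.

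Genes were filtered with filterByExpr (min.count 3), counts were TMM-normalised, and the quasi-likelihood F-test of edgeR 4.0.16 in R 4.3.3 was run on the whole table, with Benjamini-Hochberg adjustment and a threshold of 0.05. The 6 comparisons between sets came from 1 fit of 35 organoids and were adjusted together. SEs were derived from the fold-change and the F statistic. CPM uses the TMM-scaled library size. Log2 values of single libraries use an offset of 0.5. Alternatives used limma 3.58.1 (voom), DESeq2 1.42.0, RLE factors, other filters, thinning, a replicate block and leaving out libraries. The method was tested on simulated data. The 7 organoids the study left out had 666660 to 1152914 counts and returned in an alternative. Where samples of a group are not separate mice, p-values measure only the spread between these samples.

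Technical replicates (chi-square per degree of freedom 1.12 to 2.77) were summed. The main tests compared the conditions without a block, so they did not pair samples. Only in the replicate block, an alternative, were dome and suspension samples with the same number taken as paired. The labels say that each pool was grown in both conditions, though not which number is which pool. Residuals of samples with the same number correlated (r = 0.128, 0.126 and 0.145). Bulk samples of a set come from the same mouse (r = 0.099, 0.025 and 0.0774).

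The members and gene lists were chosen with earlier results of these data known. All members were named, and of other lists at most the 4 called genes with the largest change in a comparison. The likeness search named the 3 genes of highest r for members with at least 10 CPM. Positions and transcripts are from GENCODE on GRCm38, aligned with Biopython 1.88. Promoter windows are from RefSeq. The symbol Tf on the hepatocyte list was not matched in the tables.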

Additional observations from a re-analysis of the deposited data

Results flagged for a closer look

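A sample was set apart where its gap to the nearest other sample of its group, divided by the range of the group, passed Dixon's critical value. This was examined for each member in Sets 1, 2 and 3, in 27 groups of organoids, and 7 passed. Chance flags about 1 in 20 groups for continuous values, a rate that does not hold for the sparse counts here: for 2 of the 7 a single count with all others at 0 fixed the ratio.

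In Set 1, organoid 5 stood apart for the neighbouring paralogs: Aldh1a1 was at 19.6 CPM (46 counts, next highest 9.80 CPM) and Aldh1a7 at 7.24 CPM (17 counts, next highest 1.08 CPM). The same organoid had the lowest Aldh3a1 of its set, 0.426 CPM from 1 count, and the highest Akr1c13, 25.1 CPM. In Set 3, organoid 5 stood apart for Aldh1a1 at 12.4 CPM (35 counts, next highest 4.33 CPM).

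The remaining 4 rest on few counts. In Set 2 they were Adh7 in organoid 2 at 0.866 CPM (1 count), Akr1c14 in organoid 9 at 1.21 CPM (2 counts) and Aldh1a7 in organoid 6 at 2.76 CPM (3 counts). In Set 3 it was Adh7 in organoid 3 at 0.361 CPM (1 count).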

How the results depend on the processing

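Of 863 alternative fold-changes of members, 815 kept their direction and their side of the threshold, 32 lost the call, 16 gained it and 0 called values changed sign; a change of sign between values not called either way was counted as kept. Of 127 counts of called members, 115 stayed within 1.5 times. Between domes and suspensions 7 members were called, and 4 after thinning to the smallest total (3 of the 7 and Aldh3a1). With the replicate block 8 were called (6 of the 7), with no filter on low counts 10, and without a library 4 to 9. Adh1 is included with no filter, without dome 2 and without any 1 of the suspensions. Of the 7 calls, 3 were kept without dome 1, suspension 1 or suspension 2. All 7 were kept without dome 2 or dome 3, and 4 without suspension 3. The call of 1 member in bulk passages became 3 with no filter on low counts. After thinning, 4 members called in Set 1 against Set 2 became 2, and 2 against Set 3 became 1. The call of 1 member between Sets 2 and 4 became 0 with no filter and was 0 to 1 without a Set 3 organoid, as it was (0 to 1) between Sets 3 and 4. Organoids of Sets 2 and 4 were not left out. The cause was not tested, beyond the fewer counts that thinning leaves. The settings that leave out Set 1 organoid 1 or 5 were chosen after seeing the data. With the paired replicate block, dome and suspension calls changed for Aldh3a1 (log2 fold-change 1.77), Akr1b8 (0.69) and Akr1c14 (1.70), and it changed no call in the bulk passages. Organoid numbers are only names; with them as a replicate block the calls of Aldh1a1 were lost (adjusted p = 0.106 against Set 2 and 0.0741 against Set 4), Akr1b8 against Set 4 was lost (0.0502) and Aldh3a2 against Set 4 was gained (0.0466). Depth limits Adh1, Adh7, Aldh1a7, Aldh3a1 and Akr1c14 most, since 1 count was worth up to 0.733 CPM in domes.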

Other observations

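Some other aldehyde dehydrogenases and retinoid genes were called between the sets of single organoids. Of 12 other aldehyde dehydrogenases tested between Sets 1 and 4, 2 were higher in Set 1 and 2 lower. Of all 13927 genes tested, 1721 were higher in Set 1 than in Set 4 and 1059 lower. Aldh6a1, the methylmalonate semialdehyde dehydrogenase of mitochondria, had a mean of 6.71 CPM in Set 1 and 2.02, 2.66 and 3.33 CPM in Sets 2, 3 and 4, and was called higher in all 3 comparisons of Set 1 (log2 fold-change 1.76, 1.43 and 1.08, edgeR adjusted p = 6.26e-05, 0.00679 and 0.00455). Rbp2, the cellular retinol-binding protein, had 7.31 CPM in Set 1 and 2.36, 0.82 and 1.06 CPM in the others, and was also called in all 3 (1.76, 3.17 and 2.80, edgeR adjusted p = 0.00122, 0.000104 and 1.51e-06). Aldh1l2, a mitochondrial enzyme of folate metabolism, was at 0.266 CPM in Set 1, 5.00 CPM in Set 2, 2.41 CPM in Set 3 and 0.721 CPM in Set 4. Aldh1a3, which makes retinoic acid, was at 1.37 CPM in Set 4, below Set 2 (3.91 CPM, edgeR adjusted p = 0.0098) and Set 3 (4.65 CPM, edgeR adjusted p = 0.0199). These genes were named after their values were seen, and set, mouse and passage cannot be told apart here.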
